A study of Homo sapiens with 12 samples.

Results

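The genes described here are long intergenic noncoding RNAs, the genes whose symbol is LINC followed by a number, that were expressed in ARPE-19 cells. ARPE-19 is an established human cell line of the retinal pigment epithelium (RPE), the pigmented cell layer that supports the photoreceptors. A gene was taken as a member when its mean over the 12 libraries was at least 1 CPM (the gene's reads scaled to library size). The rule found 132 members among 2145 LINC genes in a count table of 60605 rows, and all 132 passed the filter on low counts that preceded testing. Members were chosen on their own level over all 12 libraries, so their levels are a description. The members just inside the limit were LINC00513 at 1.018, LINC01465 at 1.024 and LINC01203 at 1.033 CPM, and the genes just outside were LINC00494 at 0.9976, LINC01122 at 0.9851 and LINC01936 at 0.9282 CPM. The gene type given in the table was lncRNA for 126 members, transcribed unprocessed pseudogene for 5 (LINC01347, LINC00680, LINC01881, LINC00674 and LINC00888) and transcribed unitary pseudogene for 1 (LINC02210).

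Poly(A) RNA was sequenced in 4 groups of 3 libraries. WT names ARPE-19 cells for which the labels give no introduced open reading frame (ORF). The GFP, GSTA4 and OSK groups were stable ARPE-19 lines collected 4 days into ORF expression. Their ORFs are green fluorescent protein in GFP, glutathione S-transferase alpha 4 (an enzyme that conjugates lipid aldehydes to glutathione) in GSTA4, and in OSK the reprogramming transcription factors POU5F1 (OCT4), SOX2 and KLF4, as that abbreviation was read here. The promoter and vector that carry the ORFs, the culture of the WT cells, and the origin of each group's 3 libraries (separate cultures, lines or 1 clone) are not given in the sources used here. The p-values therefore set differences between groups against an estimate of the spread between libraries within groups, which may be technical. The effect of an ORF cannot be told apart from any other difference between the lines.

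LINC genes are transcribed by RNA polymerase II, usually spliced and often polyadenylated, but have no long conserved reading frame. They are named for lying between protein-coding genes, although annotated exons of some overlap such genes, and most of those studied so far are made at low level and in fewer cell types than messenger RNAs. Some act in the nucleus on the chromatin around them, some bind proteins or small RNAs in the cytoplasm, and a few encode short peptides. For many LINC symbols no function is established, so the members are described below by their level, position and neighbours, with a role only where one is known.

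The sequences shown belong to members that differed between an ORF line and GFP. LINC00707 was far higher in OSK than in the other groups, and the start of the longest transcript in GENCODE release 29 is shown, on GRCh38 and 5′ to 3′. The first 120 bases of that transcript, 1 of 9 of LINC00707, lie at chr10:6872944-6873063 on the plus strand. They are in the first of 2 exons of a transcript of 3105 bases. RefSeq places LINC00707 at chr10:6779598-6842906, which does not hold this start, and the neighbour distances below use RefSeq. Which start is used in these cells was not tested.
LINC00707: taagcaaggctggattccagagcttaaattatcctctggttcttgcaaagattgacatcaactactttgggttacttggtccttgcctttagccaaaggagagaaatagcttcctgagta

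Promoter windows of 300 bases, from 250 before to 50 after the gene start on the gene's strand, were found by symbol in RefSeq (GRCh38.p14) for 89 of the 132 members. The motifs ATGCAAAT (the octamer bound by POU factors), ACAAAG (the core bound by SOX factors), CCCCACCC and GGGTGTGG (boxes bound by KLF factors) and TGACTCA (the AP-1 site) were searched on both strands and counted separately even where they overlap, and matches are in capitals. LINC01133 rose in OSK and its window lies at chr1:159960974-159961273 on the plus strand. LINC02762 rose in GSTA4, with its window at chr11:112270499-112270798 on the plus strand. LINC02009 fell in GSTA4 and in OSK, with its window at chr3:46423618-46423917 on the minus strand. LINC00842 fell in GSTA4 and rose in OSK, with its window at chr10:46398112-46398411 on the plus strand.
LINC01133: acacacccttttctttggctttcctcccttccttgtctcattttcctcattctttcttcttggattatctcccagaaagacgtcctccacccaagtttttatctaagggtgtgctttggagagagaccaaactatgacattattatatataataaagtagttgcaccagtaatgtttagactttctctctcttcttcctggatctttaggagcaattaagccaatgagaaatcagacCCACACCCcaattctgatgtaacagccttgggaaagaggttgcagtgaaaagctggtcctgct
LINC02762: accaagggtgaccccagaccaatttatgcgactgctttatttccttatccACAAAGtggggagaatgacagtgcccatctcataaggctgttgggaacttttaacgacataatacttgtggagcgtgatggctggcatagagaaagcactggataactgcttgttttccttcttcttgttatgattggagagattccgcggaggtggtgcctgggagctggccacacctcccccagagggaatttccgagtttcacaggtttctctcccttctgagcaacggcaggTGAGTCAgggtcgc
LINC02009: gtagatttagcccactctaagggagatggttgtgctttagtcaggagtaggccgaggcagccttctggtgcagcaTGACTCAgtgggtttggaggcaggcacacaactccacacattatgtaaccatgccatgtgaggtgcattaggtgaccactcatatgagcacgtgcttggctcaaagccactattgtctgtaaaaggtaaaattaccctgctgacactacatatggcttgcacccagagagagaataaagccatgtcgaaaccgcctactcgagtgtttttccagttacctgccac
LINC00842: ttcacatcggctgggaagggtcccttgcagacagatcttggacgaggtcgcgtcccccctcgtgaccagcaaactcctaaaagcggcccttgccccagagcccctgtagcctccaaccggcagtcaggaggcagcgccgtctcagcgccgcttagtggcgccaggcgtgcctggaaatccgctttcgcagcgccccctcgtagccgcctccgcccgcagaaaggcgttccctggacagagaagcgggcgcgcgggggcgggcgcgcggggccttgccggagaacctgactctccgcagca

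The LINC01133 window holds GGGTGTGG, on the opposite strand as CCACACCC, which 878 of 27305 promoter windows (3.22%) also hold and which no other member window held. The LINC02762 window holds ACAAAG and, as TGAGTCA, the AP-1 motif. The LINC02009 window holds the AP-1 motif and the LINC00842 window none of the motifs. Over all 89 member windows, the AP-1 motif was in 8 (8.99%, against 4.92% of all promoter windows), ACAAAG in 12 (13.5%, against 16%), CCCCACCC in 6 (6.74%, against 10.5%) and ATGCAAAT in 1 (1.12%, against 1.8%). Of 31 windows of members that were lower in OSK than in GFP, 6 held the AP-1 motif, 6 ACAAAG and 2 CCCCACCC. Of 7 windows of members that were higher, 0 held the AP-1 motif or CCCCACCC, and 1 each held ACAAAG, ATGCAAAT and GGGTGTGG. A match is a run of letters and no evidence of binding.

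Total counts ran from 12630675 to 17045454 per library, of which 13027 to 18982 fell on the members. GFP replicate 1 stood apart: 1391 LINC genes had at least 1 read in it, against 445 to 690 in the other 11 libraries, and 27349 named genes did, against 19488 to 22073. Counts of calls against GFP are therefore also given without it. The ORF genes had the levels that their labels call for: the GSTA4 gene averaged 415 CPM in GSTA4 and 8.78 in GFP, and POU5F1, SOX2 and KLF4 averaged 778, 627 and 927 CPM in OSK. The RPE markers (15 genes) summed to between 3770 and 5090 CPM in every library, with RPE65, the visual cycle enzyme, at 0.145 CPM in GFP. Most of the sum in GFP came from BSG (1660 CPM), KRT8 (842), SLC16A3 (610) and KRT18 (313), while RLBP1 (5.23) and BEST1 (8.64) added little. Of 12 RPE markers tested, 9 were lower and 0 higher in GSTA4 than in GFP, and 10 were lower and 2 higher in OSK. Over all genes tested 14.6% were lower and 14.7% higher in GSTA4, and 22.7% were lower and 23.1% higher in OSK. The GFP line itself had 7 of the 12 higher and 2 lower than WT, against 11% and 11.2% of all genes tested. The fibroblast markers summed to 708 to 775 CPM in GFP, 528 to 557 in GSTA4 and 337 to 396 in OSK. Most of this sum in GFP was PDGFRB (659 CPM), with COL1A1 at 82.5, and the others were too low to be tested. Of 13 pluripotency markers, NANOG, LIN28B, DPPA4, L1TD1, TDGF1, UTF1 and ZFP42 were at 0 in OSK. Many of these zeros were not particular to OSK. LIN28B, L1TD1, TDGF1, UTF1 and ZFP42 were also at 0 in WT, and DPPA4, L1TD1, TDGF1 and UTF1 in GSTA4. DNMT3B averaged 2.34 CPM in OSK, 2.61 in GFP and 1.19 in WT. Of 7 markers of stratified epithelium, 2 were tested and went opposite ways in OSK. KRT13 stood at 255 CPM in OSK against 2.22 in GFP. TP63 fell to 0.155 CPM from 1.63 in GFP (log2 fold change -3.30, edgeR adjusted p = 5.84e-05). KRT5 and DSG3 were at 0 in OSK. The summed leukocyte markers did not pass 1.59 CPM in any library. Whether these markers have a part in the LINC changes was not tested. In bulk RNA, fewer cells making a transcript and less of it per cell cannot be told apart.

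The members as a whole held the smallest share of reads in OSK. Reads on the 132 members were 0.111% ± 0.00153 (SD, n = 3) of a library for WT, 0.119% ± 0.00611 for GFP, 0.115% ± 0.00252 for GSTA4 and 0.0888% ± 0.000833 for OSK. The 3 OSK libraries, at 0.0879% to 0.0895%, lay below all 9 others, which ran from 0.109% to 0.126%. The plot of read shares shows this gap and, beside it, how GFP replicate 1 departs from the rest in the number of LINC genes detected.

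**Figure D1:**
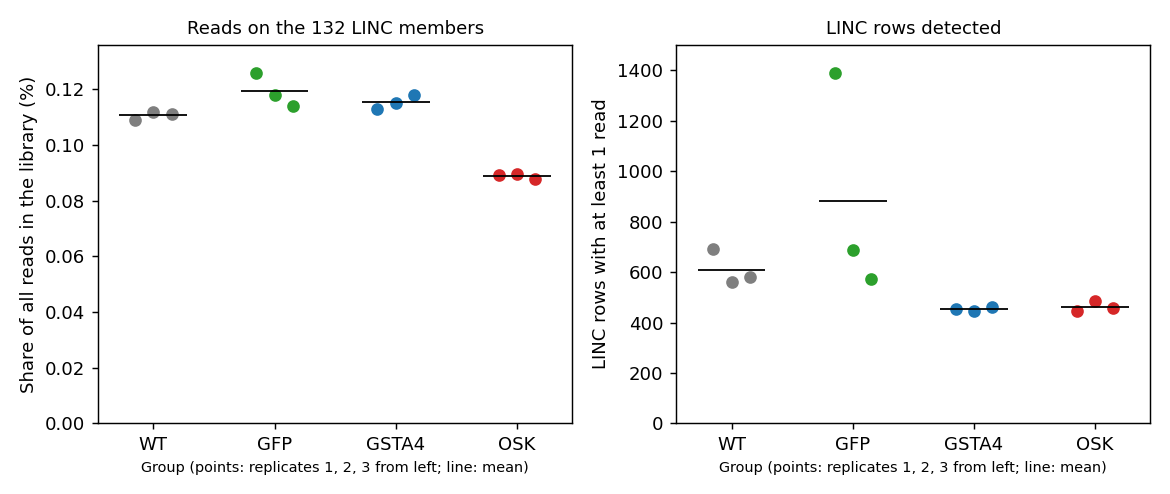
Left, share of a library's reads on the 132 LINC members (%); right, number of LINC genes with at least 1 read. Points are libraries, ordered by replicate within each of the 4 groups, and lines are group means; the OSK shares of 0.0879% to 0.0895% lie below all others, and GFP replicate 1 has 1391 LINC genes detected against 445 to 690 elsewhere.

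A difference among the 4 groups was called for 75 of the 132 members (56.8%, against 66.9% of the 15179 genes tested) by edgeR's quasi-likelihood F test at a Benjamini-Hochberg adjusted p under 0.05, the threshold used throughout. OSK had the lowest mean for 45 of these 75 and the highest for 9. GFP had the highest mean for 26 and the lowest for 1. WT was highest for 24 and lowest for 12, and GSTA4 highest for 16 and lowest for 17. The heat map by library shows the low OSK levels in its upper part as a block of blue.

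**Figure D2:**
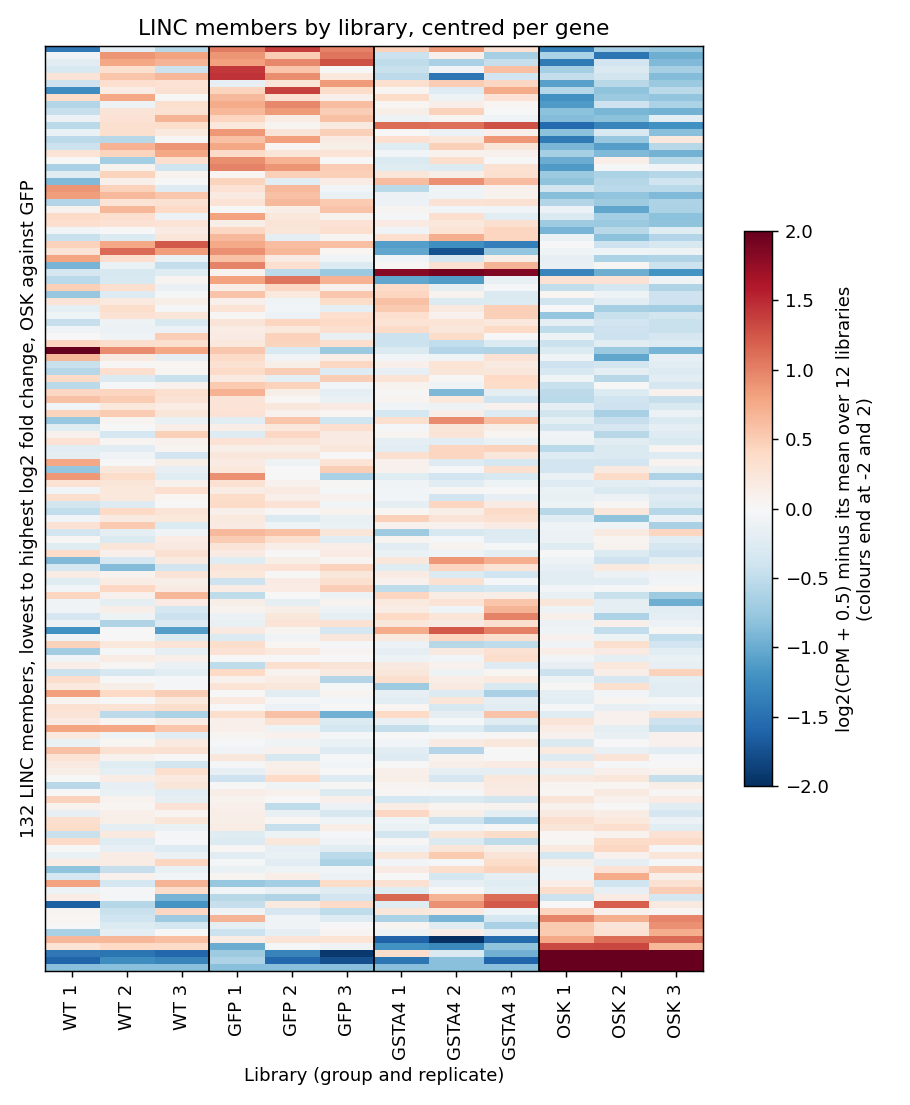
Each of the 132 rows is a LINC member and each of the 12 columns a library; colour is log2(CPM + 0.5) minus the gene's mean over the 12 libraries, and rows run from the lowest to the highest log2 fold change of OSK against GFP. The 3 OSK columns are blue over the upper rows and dark red in the last 3, and GFP columns are mostly red at the top.

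Levels spanned a wide range, which can be compared between genes only per length of exon. Of the 119 members with 1 entry in GENCODE release 29 (median exon length 3043 bases), the highest in GFP were LINC01833 with 24.0 CPM per kilobase, LINC01836 with 23, LINC00968 with 17.8, LINC00472 with 17.7 and LINC02159 with 15.7. LINC01833 lies beside SIX3, a transcription factor of the early eye field. LINC00472 was also among the 5 members with least sign of a difference among groups. Its level was 68.3, 56.2 and 50.9 CPM in the WT libraries, 61.6, 62.9 and 58.4 in GFP, 59.7, 58.2 and 60.6 in GSTA4, and 63.2, 53.8 and 62.9 in OSK. These 4 groups overlapped, and the log2 fold change of OSK against GFP was -0.02 ± 0.0907 (SE). The other 4 of the least varying members, LINC01719, LINC01001, LINC00526 and LINC00847, had group means between 1.02 and 5.18 CPM, where the counts are lower and a change is harder to detect.

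Against the GFP line, OSK cells had 55 of 132 members called, which is 41.7% where 45.9% of all genes tested were called. Of these, 46 were lower and 9 higher, while all genes split about evenly (3453 lower and 3507 higher). Lower members made up 34.8% of the 132, against 22.7% of all genes, and higher members 6.82%, against 23.1%. Calls with a log2 fold change of 1 or more in size numbered 4 higher and 24 lower members, against 5.07% and 6.57% of all genes (11.6% in either direction). The 4 higher ones are members through OSK alone, so nothing is read from their number. Among the 99 members at 1 CPM or more in every group, 0 higher and 13 lower had a call of that size. The median log2 fold change was -0.35 over the members and -0.02 over all genes. LncRNA genes with other names leaned the same way: of 831 tested, 236 were lower and 64 higher, with a median of -0.38. Without GFP replicate 1 the calls numbered 44 (8 higher and 36 lower), of which 43 were among the 55. Scaling the libraries on lncRNA genes alone, an alternative chosen after seeing the data, moved the median of all genes to 0.314 and that of the members to -0.02, and the split became 24 higher and 26 lower. Of these 50 calls, 35 were among the 55. Such scaling centres the lncRNA genes, which include 126 of the members, so a member median near 0 follows from it. Here and in the comparisons below it therefore cannot decide whether the members lean lower.

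The largest rises in OSK were those of 3 RNAs with a low level or no read in the other groups. LINC02582 had 3.98, 3.86 and 6.04 CPM in the OSK libraries and no read in the other 9, where a count of 0 allows up to 0.177 to 0.228 CPM. Against the floor of 3 counts per GFP library it was at least 21.5-fold higher in OSK than in GFP (edgeR adjusted p = 6.11e-07). LINC00707 had 21.7, 29.7 and 28.9 CPM in OSK, where GFP libraries had 0.608, 0.0716 and 0.0. The fitted log2 fold change was 6.90 ± 0.392 (SE, edgeR adjusted p = 1.09e-11), a size that rests on GFP counts of 8, 1 and 0: it was 9.27 without GFP replicate 1 and 6.30 without GFP replicate 3. The other groups averaged 0.153 (WT), 0.226 (GFP) and 0.215 (GSTA4) CPM, and in GENCODE release 29 its exons overlap those of 3 other noncoding genes on the same strand. LINC01133 had 17.6, 19.7 and 17.5 CPM in OSK with 0.835, 0.358 and 0.0679 for GFP (log2 fold change 5.46 ± 0.379, edgeR adjusted p = 2.47e-10), and 6.39 without GFP replicate 1. Its GSTA4 libraries had 2.28, 1.27 and 0.618 CPM. This gene overlaps the body of SLAMF9, and its promoter window is the one shown above with the KLF box. These 3 genes are members through OSK alone, since their mean over the other 9 libraries was 0, 0.198 and 0.698 CPM, so that some difference followed from the rule.

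The other 6 members called higher in OSK changed less. LINC01561 had 3.48, 3.54 and 2.04 CPM in OSK against 0.304, 1.07 and 1.02 in GFP (log2 fold change 1.90 ± 0.413, edgeR adjusted p = 0.000798). WT had 1.43, 1.61 and 1.59 CPM of LINC01561, above all GFP libraries, though GFP against WT (-0.93) was not called (edgeR adjusted p = 0.134). LINC01561 too is a member through 1 group. LINC00842 had 6.4, 8.35 and 8.43 CPM in OSK against 4.02, 4.37 and 4.41 in GFP (0.86 ± 0.216, edgeR adjusted p = 0.00281). For LINC00842 GFP against WT was -0.45 and not called (edgeR adjusted p = 0.149). LINC00511, an RNA reported to bind the chromatin silencer EZH2, had 14.5, 12 and 14.5 CPM in OSK against 11.7, 6.8 and 5.9 in GFP (0.75 ± 0.224, edgeR adjusted p = 0.00929). All its OSK libraries lay above all GFP libraries, but the call was lost without GFP replicate 2 (log2 fold change 0.65) or GFP replicate 3 (0.57). LINC01003, LINC02211 and LINC00641 rose by 0.75, 0.84 and 0.34. LINC01003 lost its call without OSK replicate 3 (0.54) and LINC02211 without GFP replicate 1 (0.71), GFP replicate 2 (0.83) or OSK replicate 3 (0.72). LINC00641, whose groups overlap and whose adjusted p was 0.0499, lost it in the absence of 1 library for 6 of the 12 libraries, with values of 0.21 to 0.35.

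Among the 46 members that fell in OSK, the changes ran from -0.33 to -2.75 with a median of -1.10, and 42 had no overlap between the OSK and GFP libraries. Called or not, 65 of the 132 members (49.2%) had no overlap in this comparison, against 54.7% of all genes tested. LINC00906 had 0.284, 0.759 and 0.703 CPM in OSK against 3.65, 4.8 and 3.53 in GFP (log2 fold change -2.75 ± 0.424, edgeR adjusted p = 2.03e-05). It was low in WT as well (0.249, 1.25 and 0.884 CPM), so the GFP and GSTA4 lines were the high ones. LINC01013 had 0.924, 0.316 and 0.632 CPM in OSK against 3.57, 2.65 and 4.14 in GFP (-2.47 ± 0.419, edgeR adjusted p = 6.04e-05). LINC02593 had 2.27, 5.18 and 3.51 CPM against 12.5, 13.9 and 17.4 (-1.98 ± 0.257, edgeR adjusted p = 2.25e-06). LINC01359, within the body of JAK1, had 1.07, 1.2 and 0.703 CPM against 5.47, 3.65 and 2.04 (-1.89 ± 0.405, edgeR adjusted p = 0.000695). The OSK and GFP libraries of these 4 genes did not overlap, which the rule that named them required. LINC02334 had 0.426, 0.695 and 0.422 CPM against 3.42, 1.65 and 0.95, a change of -1.92 that became -1.30 and was no longer called (edgeR adjusted p = 0.0721) without GFP replicate 1. LINC02334 is a member through GFP alone, so some difference from GFP followed from the rule. Its change of GFP against WT was 1.22 and not called (edgeR adjusted p = 0.0889).

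More abundant members fell too, by smaller but tightly measured amounts. LINC00205 had 34.1, 33.4 and 31.8 CPM in OSK, while its 9 other libraries lay between 61.1 and 71.0 CPM. Its log2 fold change against GFP was -0.99 ± 0.0719 (edgeR adjusted p = 4.8e-10), with GSTA4 and WT level with GFP. LINC01833, the neighbour of SIX3, had 55.6, 59.7 and 58.4 CPM in OSK against 88.2, 92.0 and 99.1 in GFP (-0.69 ± 0.0674, edgeR adjusted p = 4.5e-08). LINC02159 had 17.1, 15.7 and 16.7 CPM in OSK against 31.6, 40.9 and 37.3 in GFP (-1.15 ± 0.174, edgeR adjusted p = 1.56e-05). In LINC02159 the first WT library, at 17.1 CPM, was as low as OSK, whereas the OSK libraries of LINC00205 and LINC01833 lay below all others.

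**Figure D3:**
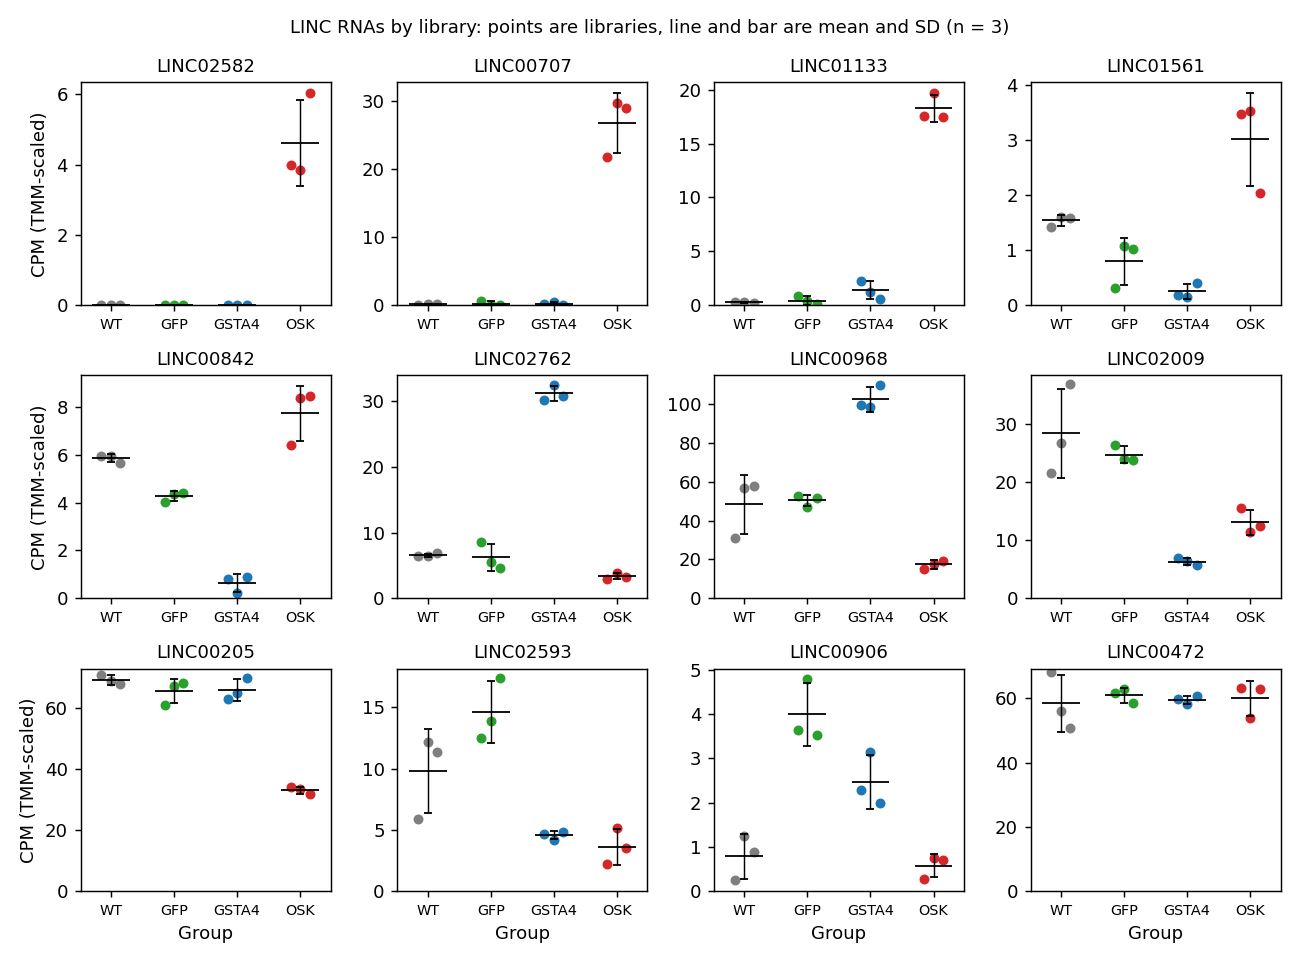
CPM after TMM scaling of 12 LINC members in WT, GFP, GSTA4 and OSK; points are libraries, ordered by replicate, and line and bar are mean and SD (n = 3), on linear axes that start at 0. LINC02582 has no read outside OSK, LINC02762 and LINC00968 are highest in GSTA4, LINC00842 and LINC02009 are lowest there, and LINC00472 is level.

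Fewer members differed between GSTA4 and GFP cells, with 24 of 132 called (18.2%, against 29.2% of all genes tested). Of these, 6 were higher and 18 lower, against 14.7% and 14.6% of all genes. Calls with a log2 fold change of 1 or more in size numbered 5 higher and 9 lower members, against 1.7% and 4% of all genes (5.7% in either direction). Of the 5 higher ones, LINC01956 and LINC02606 are members through GSTA4 alone and LINC01133 through OSK alone, so nothing is read from their number. Among the 99 members at 1 CPM or more in every group, 2 higher and 3 lower had a call of that size. Libraries did not overlap for 39 members and for 42.3% of all genes. The median log2 fold change was -0.12 over the members and 0.01 over all genes. LncRNA genes with other names again leaned lower (55 higher and 105 lower of 831, median -0.14). Without GFP replicate 1 the calls numbered 20 (6 higher and 14 lower), all of them among the 24. Scaling on lncRNA genes alone moved the median of all genes to 0.124 and gave 7 higher and 15 lower members.

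LINC02762 had the largest rise in GSTA4. It had 30.2, 32.4 and 30.8 CPM there against 8.58, 5.51 and 4.68 in GFP, with WT at 6.4, 6.45 and 6.84. The log2 fold change was 2.32 ± 0.161 (edgeR adjusted p = 5.66e-10), and no GSTA4 library came near the other groups. LINC00968, on chromosome 8 between 56496246 and 56559823 on the minus strand, had 99.4, 98.3 and 110 CPM in GSTA4 against 52.5, 47.2 and 51.6 in GFP (1.02 ± 0.146, edgeR adjusted p = 1.82e-05). The same gene fell in OSK to 15.1, 17.9 and 19.3 CPM (-1.53 ± 0.164, edgeR adjusted p = 1.63e-07), so it is highest in one ORF line and lowest in the other. LINC01956 had 3.11, 2.1 and 3.02 CPM in GSTA4 against 0.608, 0.573 and 0.746 in GFP (2.08 ± 0.441, edgeR adjusted p = 0.00119). It lies beside EN1, a homeobox gene too low to be tested here, and is a member through GSTA4 alone. LINC02606, also a member through GSTA4, rose by 1.34, a call lost without GFP replicate 2 (1.39), GFP replicate 3 (1.12), GSTA4 replicate 2 (1.19) or GSTA4 replicate 3 (1.34). LINC00910 rose by 0.72 and lost its call without GFP replicate 3 (0.59) or GSTA4 replicate 2 (0.62).

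The falls in GSTA4 reached further than the rises. LINC02041 had 0.317, 0.0 and 0.481 CPM in GSTA4 against 2.66, 2.15 and 1.22 in GFP (-2.83 ± 0.563, edgeR adjusted p = 0.000662), a value built on few counts that was -3.49 without GSTA4 replicate 3. LINC00842 had 0.825, 0.225 and 0.893 CPM in GSTA4 against 4.02, 4.37 and 4.41 in GFP (-2.68 ± 0.301, edgeR adjusted p = 8.15e-07), the reverse of its rise in OSK. LINC02009 had 6.98, 6.37 and 5.7 CPM against 26.5, 24.0 and 23.9 (-1.96 ± 0.172, edgeR adjusted p = 2.29e-08). In that gene OSK lay between GSTA4 and both controls, at 15.6, 11.5 and 12.4 CPM. LINC01359 had 1.02, 0.3 and 1.17 CPM against 5.47, 3.65 and 2.04 (-2.13 ± 0.415, edgeR adjusted p = 0.000561). LINC01422 had 0.508, 0.45 and 1.37 CPM against 3.11, 3.87 and 2.85 (-2.06 ± 0.387, edgeR adjusted p = 0.000384), and -2.74 without GSTA4 replicate 3. Neither gene overlapped between GSTA4 and GFP, which the rule that named them required. The WT libraries of LINC01422, at 0.932, 1.17 and 1.65 CPM, reached into the GSTA4 range.

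Both ORF lines were compared with the same GFP libraries, so their calls are set side by side and not related to each other. Lower in both were 10 members, 34 were lower in OSK with no call in GSTA4, and 5 lower in GSTA4 with no call in OSK. LINC01133 alone was called higher in both, with 2.28, 1.27 and 0.618 CPM in GSTA4, but its GSTA4 libraries overlap those of GFP. That rise of 1.77 was no longer called without GFP replicate 3 (1.24) or GSTA4 replicate 1 (1.19). LINC00968 and LINC02762 were higher in GSTA4 and lower in OSK. LINC00842, LINC01561 and LINC00511 were lower in GSTA4 and higher in OSK. Of these last 3, LINC01561 fell by 1.65 in GSTA4 with overlapping libraries and lost the call without GFP replicate 2 (-1.40), GFP replicate 3 (-1.44), GSTA4 replicate 1 (-1.47) or GSTA4 replicate 2 (-1.41). LINC00511 fell by 0.84 and lost it without GFP replicate 1 (-0.49) or GSTA4 replicate 2 (-0.70). The remaining 69 members had no call in either comparison.

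Set directly against each other, OSK and GSTA4 differed in 49 members (37.1%, against 47.8% of all genes tested), 14 higher and 35 lower in OSK, against 24.1% and 23.8% of all genes. Scaling on lncRNA genes alone gave 19 higher and 24 lower, with the median of all genes at 0.203. LINC02762 was lower in OSK by -3.18 ± 0.173 on the log2 scale (edgeR adjusted p = 3.41e-12) and LINC00968 by -2.55 ± 0.161 (edgeR adjusted p = 3.57e-11). LINC00842 was higher in OSK by 3.53 ± 0.283 (edgeR adjusted p = 1.61e-09) and LINC01561 by 3.54 ± 0.492 (edgeR adjusted p = 4.52e-06). LINC02582 was at least 22.3-fold higher, LINC00707 higher by 6.96 (7.96 without GSTA4 replicate 2) and LINC01133 by 3.69 (4.28 without GSTA4 replicate 1). The further large falls were LINC00906 (-2.05), LINC02235 (-1.96) and LINC00327 (-1.84). LINC02235 had 0.355, 0.506 and 0.632 CPM in OSK against 1.78, 2.32 and 1.79 in GSTA4. LINC00327 had 0.284, 0.632 and 0.492 CPM against 1.59, 1.87 and 1.72. In each of these 10 genes every OSK library lay on one side of every GSTA4 library, which the rule that named them required. Non-overlap held for 65 of the 132 members and for 58% of all genes tested. Calls with a log2 fold change of 1 or more in size numbered 9 higher and 17 lower members, against 7.14% and 5.93% of all genes (13.1% in either direction). LINC02582, LINC00707, LINC01133 and LINC01561 are members through OSK alone, and LINC02235 is 1 of those through GSTA4 alone, so nothing is read from these numbers. Among the 99 members at 1 CPM or more in every group, 2 higher and 8 lower had a call of that size.

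**Figure D4:**
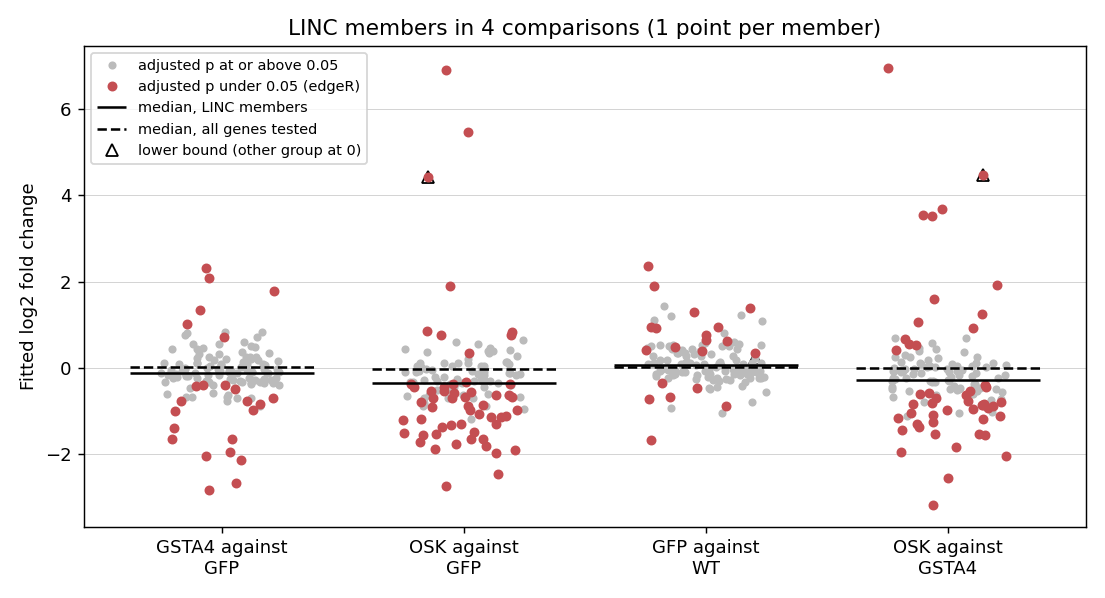
Fitted log2 fold changes of the 132 LINC members in 4 comparisons, 1 point per member; red points passed an edgeR adjusted p under 0.05, solid lines are the members' medians and dashed lines those of all 15179 genes tested. Triangles mark LINC02582, which had no read in the other group, at its lower bound; the medians of OSK against GFP are -0.35 for members and -0.02 for all genes.

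The GFP line differed from WT cells in 20 members (15.2%, against 22.2% of all genes tested), 14 higher and 6 lower in GFP, against 11% and 11.2% of all genes. Calls with a log2 fold change of 1 or more in size numbered 4 higher members and 1 lower, LINC01134, against 2.55% and 0.758% of all genes (3.31% in either direction). Libraries did not overlap for 32 members and for 34.6% of all genes. Under scaling on lncRNA genes alone the split was 9 higher and 6 lower. Without GFP replicate 1 the calls numbered 16 (12 higher and 4 lower), with 13 of the 20 among them. Without GFP replicate 2 they numbered 13. LINC00906 had 3.65, 4.8 and 3.53 CPM in GFP against 0.249, 1.25 and 0.884 in WT (2.35 ± 0.404, edgeR adjusted p = 0.000335). LINC01422 rose by 1.38 ± 0.359 (edgeR adjusted p = 0.00943) and LINC01515 by 1.29 ± 0.327 (edgeR adjusted p = 0.00766). LINC01422 and LINC01515 had their highest 3 libraries in GFP, and LINC00906 was high in GFP and GSTA4. LINC00467, a gene that also encodes a short mitochondrial peptide, had 5.01, 5.15 and 5.84 CPM in GFP against 3.11, 2.05 and 3.06 in WT (0.95 ± 0.233, edgeR adjusted p = 0.00624). LINC01111 rose by 1.90 (2.65 without WT replicate 2), a call lost without WT replicate 1 (1.46), WT replicate 3 (1.79), GFP replicate 2 (1.83) or GFP replicate 3 (1.66).

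In the other direction, LINC01134 had 5.01, 2.58 and 1.76 CPM in GFP against 16.9, 6.82 and 5.95 in WT (-1.68 ± 0.365, edgeR adjusted p = 0.00251), and the change was -1.05 without WT replicate 1, still called. Its first replicate was the highest in every group. LINC00235 had 4.71, 4.01 and 3.32 CPM in GFP against 7.89, 7.77 and 6.66 in WT (-0.89 ± 0.206, edgeR adjusted p = 0.00408), and neither GSTA4 nor OSK was called against GFP. LINC02693 had 41.6, 38.2 and 41.9 CPM against 51.5, 50.7 and 53 (-0.35 ± 0.0844, edgeR adjusted p = 0.00548), again with no call of GSTA4 or OSK against GFP. All 3 WT libraries of these 2 genes lay above the 9 libraries of the ORF lines. LINC01503 fell by 0.72 and LINC00638 by 0.68, calls with adjusted p of 0.0301 and 0.049 (edgeR). LINC01503 lost its call without WT replicate 1 (-0.58), GFP replicate 1 (-0.75) or GFP replicate 2 (-0.64). LINC00638 lost its call in the absence of 1 library for 9 of the 12 libraries, with values from -0.52 to -0.80.

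Of the 132 members, 15 had a mean under 1 CPM over the libraries outside their highest group, so their place among the members rests on that group. They were LINC02582, LINC00707, LINC01133, LINC01561 and LINC01465 through OSK, LINC01956, LINC02606, LINC02235, LINC01535 and LINC00652 through GSTA4, LINC02334, LINC02102 and LINC00513 through GFP, and LINC01203 and LINC02482 through WT. Members at 1 CPM or more in every group numbered 99. Of these, 39 were called in OSK against GFP (4 higher and 35 lower), which is 39.4% where 48.9% of the 12826 genes at that level were called. In GSTA4 against GFP 15 were called (3 higher and 12 lower), or 15.2% against 31.7%. The widest scatter within a group, on the log2 scale, was found in LINC02715, LINC00271 and LINC00571. LINC00571 had 0.142, 0.506 and 1.48 CPM in the 3 OSK libraries.

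Because some LINC RNAs act on nearby genes, each member was set beside its nearest protein-coding gene in RefSeq. A position was found for 120 members and the neighbour was tested for 87, with a median gap of 12871 bases and 6 overlapping gene bodies. The 87 pairs share neighbours, with 83 distinct genes. In GSTA4 against GFP, 15 members and 39 neighbours were called, both in 8 pairs, in the same direction in 5 (62.5%). In OSK against GFP, 39 members and 43 neighbours were called, both in 24 pairs, in the same direction in 16 (66.7%). In GFP against WT, 12 members and 24 neighbours were called, both in 4 pairs, with 2 (50%) in the same direction. In OSK against GSTA4 these counts were 33, 42, 16 and 13 (81.2%). Over the 87 pairs the Spearman correlation of the log2 fold changes was 0.0111, 0.122, 0.145 and 0.322 in that order. Whether the pairs called together exceed what unrelated calls would give was not tested. LncRNA genes with other names gave 697 pairs, of which 442 overlap their neighbour. Their same-direction share was 53 of 65 pairs (81.5%) in GSTA4 against GFP and 113 of 153 (73.9%) in OSK against GFP. For OSK against GSTA4 it was 115 of 151 (76.2%), and between GFP and WT 31 of 39 (79.5%). Neighbouring genes can share reads where they overlap and the strand setting of the counting is not given.

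The pair LINC00842 and ANXA8L1, an annexin gene 6584 bases away, fell together in GSTA4 (-2.68 and -3.97). In OSK the same pair parted, with LINC00842 higher by 0.86 and ANXA8L1 lower by -0.76. ANXA8L1 has a near-identical copy, ANXA8, so its reads are uncertain. LINC02593 and SAMD11, a gene known from photoreceptors 4231 bases away, fell in GSTA4 (-1.66 and -2.44) and in OSK (-1.98 and -2.30). SAMD11 is also the nearest gene of LINC00115 and LINC01128, so these 3 pairs are not independent. LINC00968 and PENK, the proenkephalin gene 71677 bases away, both fell in OSK (-1.53 and -1.47), while in GSTA4 LINC00968 rose by 1.02 and PENK at 0.74 was not called (edgeR adjusted p = 0.233). LINC02762 rose in GSTA4 with no call for PLET1, 9889 bases away (-0.13, edgeR adjusted p = 0.899). LINC01833 and SIX3 moved apart in OSK, with LINC01833 at -0.69 and SIX3 at 0.57. LINC00205 fell in OSK with no call for POFUT2, a gene that starts 157 bases away (0.02, edgeR adjusted p = 0.848). LINC00707 and PRKCQ, 198952 bases apart, went in opposite directions in OSK (6.90 and -1.51).

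**Figure D5:**
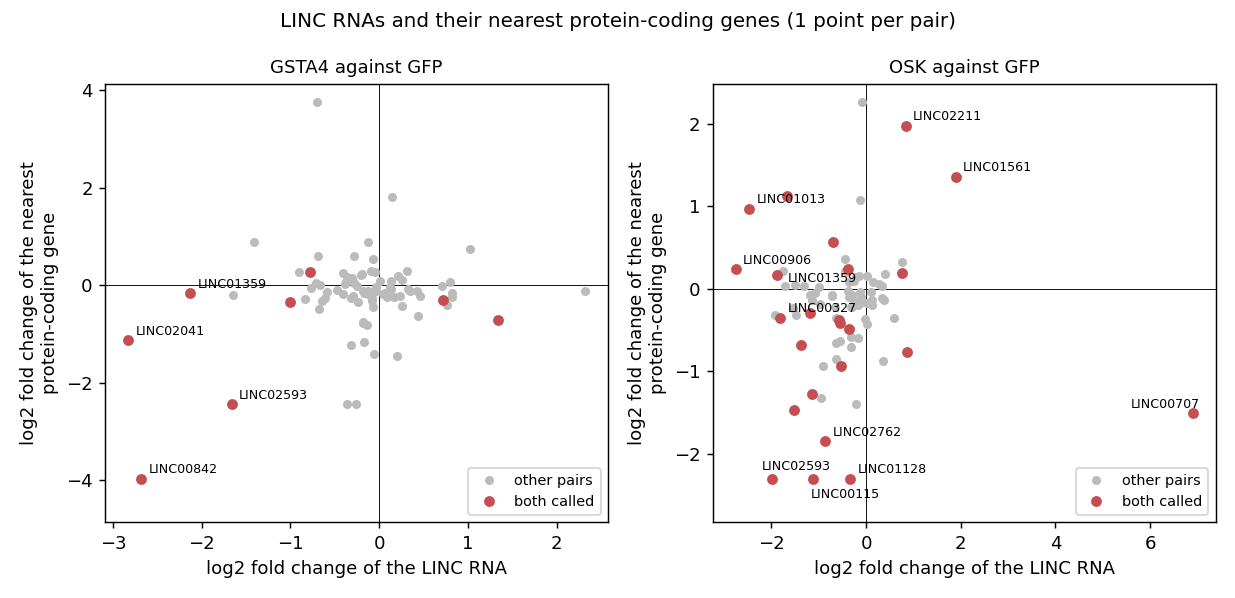
Log2 fold change of each LINC member (x axis) and of its nearest protein-coding gene (y axis) for the 87 tested pairs, in GSTA4 against GFP (left) and OSK against GFP (right); red pairs had both genes called, 8 on the left and 24 on the right. LINC00842 and ANXA8L1 lie at the lower left in GSTA4, and the 3 points at -2.30 in OSK share the neighbour SAMD11.

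Long noncoding RNAs that carry other symbols give the setting of these changes. Of 62 well-known ones listed, 40 were tested. In OSK against GFP, 23 of the 40 were lower and 4 higher, and in GSTA4 against GFP 12 were lower and 7 higher. Over all genes tested 22.7% were lower and 23.1% higher in OSK, and 14.6% and 14.7% in GSTA4. Of the 831 lncRNA genes without a LINC symbol 236 were lower (28.4%) and 64 higher (7.7%) in OSK, and 105 lower and 55 higher in GSTA4. MIR100HG, the host gene of the miR-100 cluster, fell in OSK, from 135 ± 16.3 to 41.6 ± 2.24 CPM (SD, n = 3; log2 fold change -1.70, edgeR adjusted p = 3.57e-13). KCNQ1OT1, the RNA that silences an imprinted domain, fell in OSK (-1.62) and in GSTA4 (-1.31). The 4 higher in OSK than in GFP were NORAD (0.67), OIP5-AS1 (0.57), NEAT1 (0.56) and CYTOR (0.90). NORAD binds Pumilio proteins and guards genome stability, and NEAT1 is the scaffold of nuclear paraspeckles. For NEAT1 the GFP line was itself below WT (log2 fold change -0.40, edgeR adjusted p = 0.00283). The GFP mean of NEAT1, 1500 CPM, lay below those of WT (1980), OSK (2210) and GSTA4 (2110). Neither OSK nor GSTA4 was tested against WT. Of 6 listed noncoding RNAs of pluripotent cells, LINC00458, LINC00678, LINC01108, LINC-ROR, ESRG and LNCPRESS1, none was high enough to be tested, and the highest OSK mean among them was 0.29 CPM, for LINC00678. Of 7 noncoding RNAs linked to p53, some of which are also in the list above, 4 were tested. Against GFP, NEAT1 and MIR34AHG were higher in GSTA4 (0.49 and 0.40) and LINC-PINT was lower (-0.96). In OSK against GFP, NEAT1 was higher (0.56), and MIR34AHG (-0.45) and LINC-PINT (-1.31) were lower.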

How the data were processed

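RNA of 12 ARPE-19 libraries was read as a table of raw counts per gene, deposited by the authors. Per the submitters' processing notes, STAR 2.7.1a and featureCounts 1.6.2 were used and the builds GRCh38/hg38 and GRCm38/mm10 are named without a role. The annotation release and strand setting are not given in the sources used here. Unnamed rows (0.485% to 0.822% of reads) were left out of library sizes and tests.

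Libraries were scaled with TMM, and filterByExpr kept 15179 genes. All 12 libraries were fitted together by edgeR 4.0.16 (R 4.3.3) with its quasi-likelihood F test and Benjamini-Hochberg adjustment over all genes tested, with a threshold of 0.05. The test was tested on simulated data with known changes. CPM values are TMM-scaled, except for the rule that chose the members. Standard errors of log2 fold changes were derived from the F statistic. A floor of 3 counts per library stands for a count of 0 and covers counting error only. Named members are, per comparison, the 5 largest rises and 5 largest falls that were called without overlap of libraries, the 5 least varying, those at the limit of the rule, those that passed it through 1 group, the 3 of widest scatter, up to 3 per list and up to 4 neighbour pairs per comparison by adjusted p. LINC00511, LINC01003, LINC02211, LINC00641, LINC00205, LINC01833, LINC02159 and any other name outside this rule were chosen after their values were seen. The members, lists and tests were chosen with earlier results of these data known. Alternatives included DESeq2 1.42.0, other scalings and filters, a minimum fold change, a replicate block and leaving out each library. A sequence of 1 member is not reported here.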

Additional observations from a re-analysis of the deposited data

How the results depend on the processing

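Counts of members called come in sets of 4, first GSTA4 and then OSK (both against GFP), then GFP against WT, last OSK against GSTA4, and were 24, 55, 20 and 49 as reported. Testing against a minimum log2 change of 1 (edgeR's glmTreat) left 4, 9, 0 and 8 calls, with 11, 18, 3 and 15 members at an unadjusted p under 0.05, and DESeq2 called 16 in GFP against WT. The 70 members without exon overlap had 13, 34, 12 and 30 calls (all genes 29.2%, 45.9%, 22.2% and 47.8%), and the 99 members at 1 CPM or more in every group had 15 in GSTA4 against GFP (31.7% of all genes at that level), both subsets chosen after seeing the data. Leaving out 1 library gave 18 to 25, 44 to 59, 13 to 22 and 42 to 53 calls. DESeq2 called 22, 49, 16 and 42. Scaling on lncRNA genes alone, chosen after seeing the data, gave 22, 50, 15 and 43 calls, of which 21, 35, 15 and 38 were among those reported. No member called in the report changed sign under any setting run. Deviations of same-numbered libraries correlated at -0.0193 to 0.153 over 18 pairs and those of other numbers at -0.0982 to 0.077 over 36. The 3 pairs above 0.1 join WT replicate 1 with the first replicate of GFP (0.153), OSK (0.106) and GSTA4 (0.12), and since not every pair passed 0.1 the numbers were not taken to pair the libraries. With the replicate number as a block, 26, 56, 24 and 51 members were called, and 75 differed among the groups. Members with few counts are limited by depth, since 3 counts are 0.177 to 0.228 CPM.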
